A study of Saccharomyces cerevisiae with 8 samples.

Results

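The haploid-specific genes of Saccharomyces cerevisiae (budding yeast) examined here were GPA1, STE4, STE18, STE5, FAR1, FUS3, RME1, HO, AXL1 and NEJ1, 10 of the 6256 genes on the array. They were chosen by name, as genes known to be repressed in a/alpha cells, and were matched to probes by open reading frame, with 10 of 10 found and 10 of 10 passing the signal filter that 6126 genes passed. The 8 samples in Cy5 were 7 aneuploid strains, A2, A3, A9 and A10 (first row of the slide) with A13, A14 and A15 (second row), and a wild-type sample, WT1 (second row), and each was hybridised on its own 2-colour array against wild-type RNA WT2 in Cy3. All cells were harvested at mid-log phase. The labels give each aneuploid sample a strain name and no mating type, ploidy, genotype or list of extra chromosomes, so none of these is assumed below. Each strain was measured on 1 array. A9 and A10 stood apart from WT1 in mating-type markers, with 7 of 7 a-specific genes at least 2-fold lower in both, and results over the strains are given with and without them.

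Haploid yeast of mating type a or alpha express a common set of genes that lets them sense a partner and mate. In a/alpha diploids the a1 and alpha2 proteins, encoded at the mating-type locus, bind together and repress this set, which closes the pheromone pathway, prevents mating-type switching, opens the way to meiosis and changes where buds form. The genes here cover these roles. GPA1, STE4 and STE18 encode the alpha, beta and gamma subunits of the G protein behind the pheromone receptors, STE5 the scaffold and FUS3 the MAP kinase of the cascade, and FAR1 the protein that arrests the cell cycle and orients growth towards the partner. RME1 encodes a repressor of meiosis, HO the endonuclease that starts mating-type switching, AXL1 a protease that matures a-factor and marks the axial bud site, and NEJ1 a factor of non-homologous end joining.

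One strain, A10, had far less of all of these transcripts than WT1. A10 minus WT1 ranged from -5.13 for HO to -1.77 for NEJ1 on the log2 scale, with a median of -3.11, or 8.64-fold below WT1. All 10 genes were at least 2-fold lower in A10 than in WT1, where 3.09% of all genes tested were. The other 6 strains stayed much nearer to WT1, with medians over the 10 genes of -0.16 in A2, -0.18 in A3, -0.44 in A9, -0.15 in A13, 0.01 in A14 and -0.63 in A15, and the median over all genes tested lay between -0.02 and 0.02 in every strain. Of the 60 pairs of a gene with 1 of these 6 strains, 45 lay below WT1, 6 were at least 2-fold lower, and 1 was at least 2-fold higher. Of all genes tested, from 46.8% in A14 to 53.2% in A9 lay below WT1. From 0.115% in A13 to 1.42% in A15 were at least 2-fold lower, and from 0.541% in A13 to 3.87% in A9 at least 2-fold higher. The 10 genes had a median log2 ratio of 0.10 on WT1 itself, against -0.0003 over all genes tested, which places small values below WT1.

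**Figure D1:**
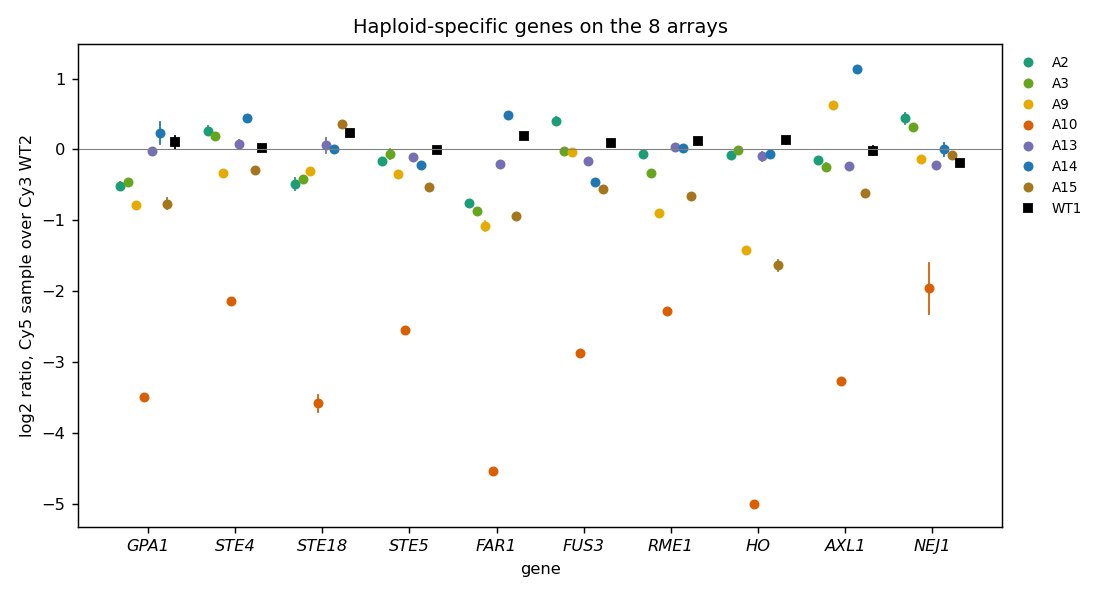
Log2 ratio of the Cy5 sample over Cy3 WT2 (vertical axis) for each haploid-specific gene (horizontal axis) on the 8 arrays. Points are means of 2 spots, vertical lines join the spots, and the black square is WT1. The A10 points lie between -5.0 and -1.96, below every other array for all 10 genes.

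Ratios below are log2 of the Cy5 sample over WT2, means of 2 spots of 1 probe, and differences are a strain's ratio minus that of WT1, which removes a dye effect common to the arrays. The 80 gene and array pairs had both spots well above background in both channels, 0 spots were saturated, and duplicate spots had a pooled SD of 0.0869. Duplicate spots measure the array, not the culture. The share of genes with signal well over background was 94.2 to 98.0% in Cy5 and 92.7 to 97.4% in Cy3, and the SD of log2 ratios over genes was 0.16 on WT1 and up to 0.71 in the strains, at A10. A ratio compares equal shares of labelled RNA, so fewer cells expressing a gene and less RNA per cell cannot be told apart.

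Of the G protein genes, GPA1 (YHR005C, chromosome VIII) encodes the alpha subunit, which holds the pathway off until pheromone binds. Its log2 ratios over WT2 were -0.51 in A2, -0.47 in A3, -0.79 in A9, -3.5 in A10, -0.03 in A13, 0.23 in A14 and -0.77 in A15, against 0.10 on WT1. A10 was 12.1-fold below WT1, and A9, A15, A2 and A3 also stood below it, by more than their duplicate spots differed. The spots of A14 and WT1 overlapped, as did those of A9 and A15 and of A2 and A3.

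STE18 (YJR086W, chromosome X) encodes the gamma subunit, which anchors the signalling beta-gamma pair to the membrane. Its ratios were -0.48 in A2, -0.42 in A3, -0.30 in A9, -3.58 in A10, 0.06 in A13, 0.0033 in A14 and 0.36 in A15, against 0.23 on WT1. A10 was 14-fold below WT1, and A15 was the only strain above it.

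STE4 (YOR212W), the beta subunit, passes the signal on once it is freed from the alpha subunit. Its ratios were 0.27 in A2, 0.20 in A3, -0.34 in A9, -2.13 in A10, 0.07 in A13, 0.44 in A14 and -0.29 in A15, against 0.02 on WT1. The 4.43-fold lower value in A10 was smaller than those of GPA1 and STE18, and in A10 the chromosome of STE4, XV, had a median log2 ratio of 0.58. Relative to that chromosome STE4 was at -2.72 in A10 and 0.01 on WT1. The other strains lay on both sides of WT1, with 4 of 7 strains above it.

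In the kinase cascade, STE5 (YDR103W, chromosome IV) holds the kinases together. Its ratios were -0.16 in A2, -0.06 in A3, -0.34 in A9, -2.55 in A10, -0.11 in A13, -0.22 in A14 and -0.53 in A15, against -0.01 on WT1. All 7 strains lay below WT1, A10 by 5.80-fold, although the spots of A3 and WT1 overlapped.

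FUS3 (YBL016W), the MAP kinase that phosphorylates Far1 and the regulators of Ste12, had log2 ratios of 0.40 in A2, -0.02 in A3, -0.03 in A9, -2.88 in A10, -0.17 in A13, -0.46 in A14 and -0.56 in A15, against 0.10 on WT1. It lies on chromosome II, whose median log2 ratio was 0.28 in A13, 0.49 in A15, 0.64 in A9, 0.66 in A2 and 0.73 in A3. FUS3 fell short of that level in each of these strains, by least in A2, the only strain where its ratio was above WT1. Relative to its chromosome the values were -0.26 in A2, -0.74 in A3, -0.67 in A9, -2.74 in A10, -0.44 in A13, -0.45 in A14 and -1.05 in A15, against 0.09 on WT1, so all 7 strains lay below it on that scale. The mean difference on that scale was -1.0 (SE 0.75, adjusted p 0.99998 by limma).

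FAR1 (YJL157C, chromosome X), which inhibits the G1 cyclin kinase, differed from WT1 at least 2-fold in more strains than the other 9 genes, in 4 of 7. Its ratios were -0.75 in A2, -0.87 in A3, -1.08 in A9, -4.54 in A10, -0.21 in A13, 0.48 in A14 and -0.94 in A15, against 0.19 on WT1. A10 was 26.4-fold below WT1, and no neighbouring arrays in this order had overlapping spots. The median red signal of the FAR1 spots in A10 was 109 over a background of 37.5. A3, A9 and A15 were below WT1 by 1.05, 1.27 and 1.13 on the log2 scale, A2 by 0.94, and A14 alone was above it.

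RME1 (YGR044C, chromosome VII) represses IME1, the master gene of meiosis, and activates the G1 cyclin gene CLN2. Its ratios were -0.07 in A2, -0.34 in A3, -0.90 in A9, -2.28 in A10, 0.03 in A13, 0.01 in A14 and -0.66 in A15, against 0.11 on WT1. All 7 strains lay below WT1, with A10 at 5.26-fold and A9 at a log2 difference of -1.01, close to the 2-fold limit, and of -0.88 relative to its chromosome.

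HO (YDL227C, chromosome IV) had the most negative value in A10. Its log2 ratios over WT2 read -0.08 in A2, -0.0013 in A3, -1.42 in A9, -5.0 in A10, -0.10 in A13, -0.06 in A14 and -1.64 in A15, against 0.13 on WT1. A10 was 35.0-fold, A15 3.39-fold and A9 2.92-fold below WT1, and A2, A3, A13 and A14 formed a tight set just under it. The median red signal of the HO spots was 80.8 in A10 over a background of 37.8, against 1865 on WT1 over 35.5, so the A10 signal was small but above background.

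AXL1 (YPR122W) was the 1 gene at least 2-fold from WT1 in both directions. Its ratios were -0.15 in A2, -0.24 in A3, 0.63 in A9, -3.27 in A10, -0.24 in A13, 1.14 in A14 and -0.61 in A15, against -0.02 on WT1. A10 was 9.53-fold below WT1. The 2 strains above WT1, A14 and A9, were those with a raised median of chromosome XVI, where AXL1 lies, at 0.75 and 0.55. Relative to that chromosome AXL1 was at 0.38 in A14 and 0.07 in A9, against -0.02 on WT1.

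NEJ1 (YLR265C), which loads the end-joining ligase complex in haploid cells, had log2 ratios of 0.44 in A2, 0.32 in A3, -0.13 in A9, -1.96 in A10, -0.22 in A13, 0.0021 in A14 and -0.07 in A15, against -0.19 on WT1. The 2 strains furthest above WT1, A2 and A3, had chromosome XII, which carries NEJ1, at 0.59 and 0.50, and relative to it NEJ1 was at -0.15 and -0.19, against -0.18 on WT1. A10 was 3.42-fold below WT1 although its chromosome XII was at 0.32. The duplicate spots of NEJ1 in A10 differed by 0.72, the widest gap among the 80 pairs, so this value is the least precise.

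**Figure D2:**
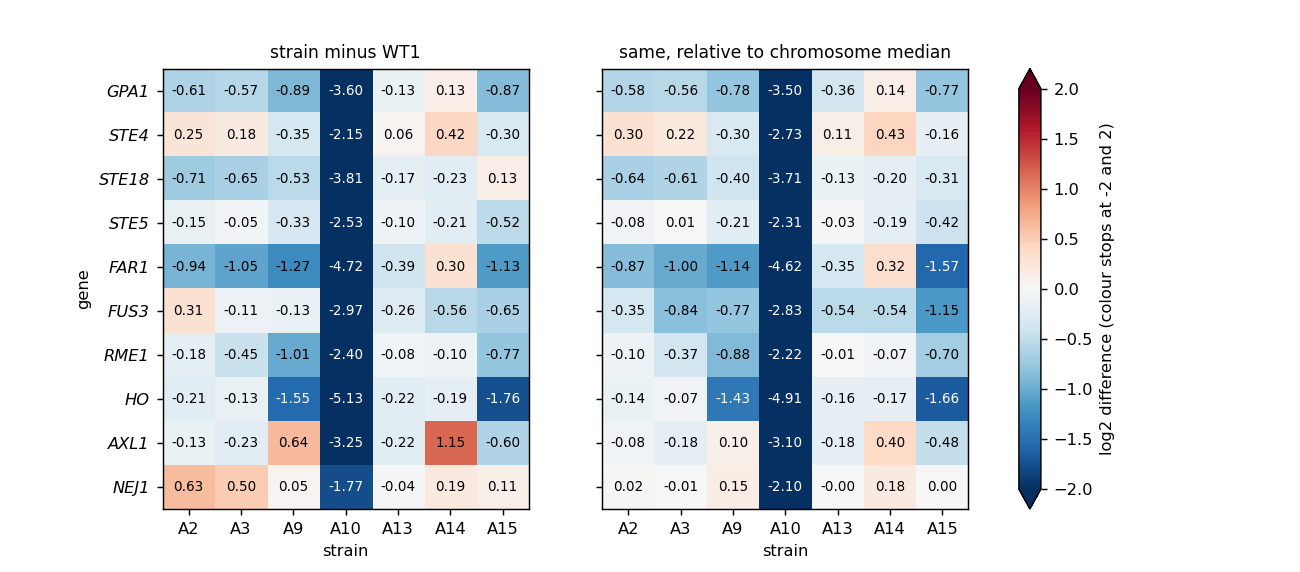
Log2 difference of each strain minus WT1 for the 10 genes (rows) in the 7 strains (columns), as measured on the left and relative to the median of the gene's chromosome on the right. Colour stops at -2 and 2. The A10 column is the lowest in every row of both panels, and AXL1 in A14 changes from 1.15 to 0.40 when its chromosome is taken into account.

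The reference channel was read to see which dye carried these differences. WT2 is the same RNA on every array, and over the 8 arrays the Cy3 level of GPA1 spanned 0.37, that of HO 0.27 and that of FAR1 0.19 on the log2 scale, after loess and Aquantile scaling. The Cy5 level of the same genes spanned 4.02, 5.33 and 5.11. Without A10 the Cy5 spans were 1.06, 1.85 and 1.69, still above those of Cy3. NEJ1 had the widest Cy3 span, 0.54. The lowest Cy3 level lay on the A10 array for NEJ1, GPA1, STE18, STE5 and HO, but not for STE4, FAR1, FUS3, RME1 or AXL1.

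**Figure D3:**
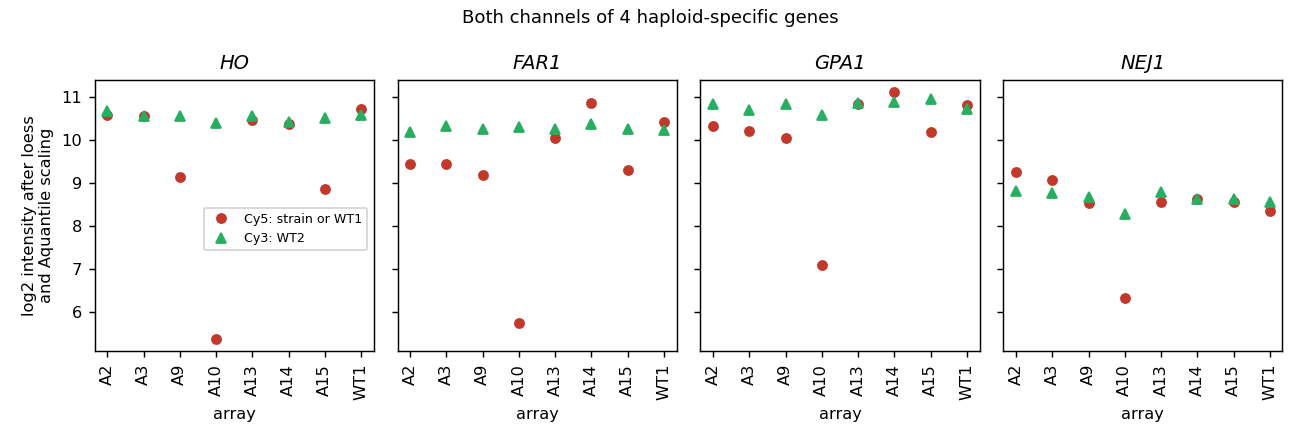
Log2 intensity after loess and Aquantile scaling (vertical axis) in Cy5 (circles, strain or WT1) and Cy3 (triangles, WT2) on the 8 arrays for HO, FAR1, GPA1 and NEJ1. The Cy3 triangles stay nearly level, and the A10 circles lie far below them, at 5.39 for HO and 6.33 for NEJ1.

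Ranked among all 6126 genes in A10, from the most negative difference, HO was 3, FAR1 was 4, STE18 was 7, GPA1 was 9, AXL1 was 10, FUS3 was 13, STE5 was 18, RME1 was 20, STE4 was 26 and NEJ1 was 36. A10 and WT1 lay in different rows of the slide, and A2, A3 and A9, in the row of A10, had medians over the 10 genes of -0.16, -0.18 and -0.44 relative to WT1. For all 10 genes A10 was the lowest of the 8 arrays, as it was for 30% of all genes with a value on every array, and relative to the chromosome for 10 of 10 against 27.3%. The size of the A10 differences depended on the signals used, and the cause was not tested. With Agilent's processed signals the 10 differences ranged from -6.71 to -2.27, and those of STE18, FAR1, HO, AXL1 and NEJ1 moved by over 1.5-fold, to -5.22, -5.90, -6.71, -3.96 and -2.49.

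As a group of 7 strains against WT1, none of the genes passed the test. limma, with Benjamini-Hochberg adjustment over all genes, called 0 of 10 higher and 0 of 10 lower, as it called 0% of all genes tested in each direction, with 32 of 6126 genes and 0 of the 10 at an unadjusted p under 0.05. HO had a mean difference of -1.31 (SE 1.64, adjusted p 0.9996 by limma), with strains at -1.19 ± 1.82 (SD, n = 7) and WT1 at 0.13. FAR1 was at -1.31 (SE 1.44), GPA1 at -0.94 (SE 1.11), STE18 at -0.85 (SE 1.21) and RME1 at -0.71 (SE 0.75). STE5 and FUS3 were at -0.56 (SE 0.81) and -0.63 (SE 0.98), and AXL1, STE4 and NEJ1 at -0.38, -0.27 and -0.05. The median over the 10 genes was -0.67, beside 0.04 over all genes tested, and it was -0.30 without A10 and -0.29 without A9 and A10. Within the slide row of WT1, which holds A13, A14 and A15, it was -0.28. Without A10, STE4, AXL1 and NEJ1 stood above WT1, at 0.04, 0.10 and 0.24. STE5, RME1 and HO lay below WT1 in 7 of 7 strains, that is 3 of 10 genes where 7.34% of all genes did. Relative to the chromosome STE18, FUS3, RME1 and HO did, 4 of 10 where 8.13% of all genes did. Set against WT2 in place of WT1, 0 of the 10 genes were called higher or lower, where limma called 2.33% of all genes higher and 3% lower. That comparison leaves out the WT1 array, so a dye effect common to the arrays stays in it. WT1 was assumed to vary like the strains. The 7 different strains served as replicates of 1 aneuploid group, so these p-values rest on the spread between strains, which may be partly technical. A10 widened that spread, and without it the SE of HO was 0.69. The spread between cultures of the same strain was not measured.

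Among the 6 strains other than A10, at least 2-fold lower values were found for FAR1 in A3, where 0.932% of all genes tested were at least 2-fold lower, for FAR1, RME1 and HO in A9, where 1.27% were, and for FAR1 and HO in A15, where 1.42% were. No haploid-specific gene was 2-fold lower in A2 (1.19% of all genes), A13 (0.115%) or A14 (0.36%). AXL1 in A14 was the single gene at least 2-fold higher, where 2.96% of all genes were. In the other strains 0 of 10 were, where 2.09% of all genes were in A2, 1.93% in A3, 3.87% in A9, 7.87% in A10, 0.541% in A13 and 2.68% in A15. In A13 the differences ran from -0.39 to 0.06, the narrowest range of the 7 strains. In A14 5 genes lay below and 5 above WT1, where 46.8% of all genes tested lay below.

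Chromosome medians moved with part of this pattern. Of the 60 pairs without A10, 10 had a chromosome whose median log2 ratio was 0.3 or more. Those 10 pairs had a median log2 ratio of 0.34, with 4 of 10 below 0, and the other 50 had a median of -0.21, with 39 of 50 below 0. Relative to the chromosome the medians were -0.22 and -0.18. Within the 10, NEJ1 in A2 and A3, AXL1 in A9 and STE18 in A15 lay within 0.2 of their chromosomes. FUS3 in A3, A9 and A15 and FAR1 in A15 lay further below, the last at -1.40.

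**Figure D4:**
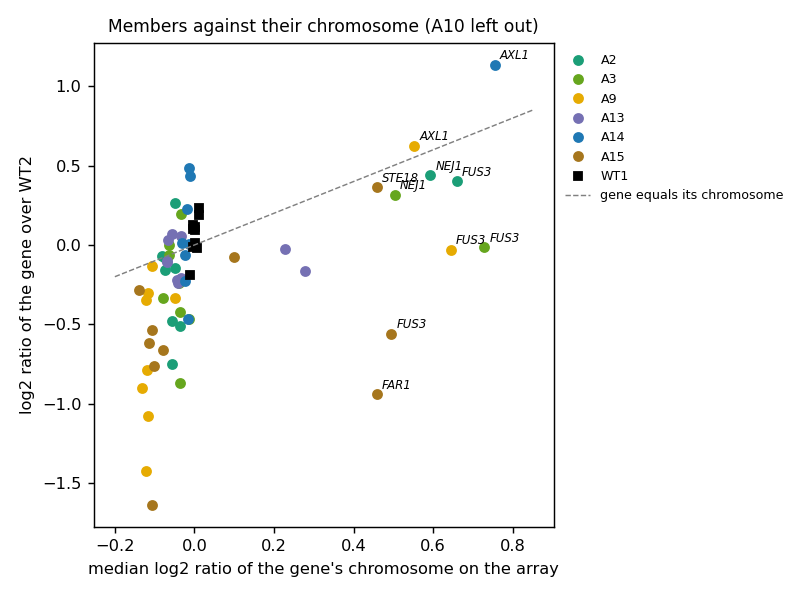
Log2 ratio of each haploid-specific gene over WT2 (vertical axis) against the median log2 ratio of its chromosome on the same array (horizontal axis), for 6 strains and WT1, with A10 left out. Named points have a chromosome median of 0.3 or more, and the dashed line marks a gene equal to its chromosome. FAR1 in A15 lies lowest of the named points, at -0.94.

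Markers of mating type were read beside these values. In A10 the a-specific genes, which encode the proteins by which a cells send and receive pheromone, were lower as well: 7 of 7 were at least 2-fold below WT1, with a median difference of -4.11, and STE2, the alpha-factor receptor, was at -6.50. The 4 alpha-specific genes had a median of 0.31 in A10, with STE3, the a-factor receptor, at 1.27 and SAG1 at -0.31. That median is uncertain, as MF(ALPHA)1 was not well above background on WT1 and MF(ALPHA)2 was only slightly above it there. HMRA1, whose probe reads the a1 transcript, was at -0.05 in A10 minus WT1, and MATALPHA1, the activator of alpha-specific genes, at -0.12. MATALPHA2 and HMRA2 share sequence, so their values, 0.25 and 0.12, are uncertain.

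A9 showed another combination. The a-specific genes had a median difference of -4.48 there, with 7 of 7 at least 2-fold lower, but the alpha-specific genes had 4.92, with 4 of 4 at least 2-fold higher, and MATALPHA1 was at 2.95. HMRA1 had no spot well above background there and was at least 13.1-fold below WT1. The haploid-specific median of A9 was -0.44, against -3.11 in A10. In A2, A3 and A15, 4 of 7 a-specific genes were at least 2-fold lower, with medians of -1.18, -1.16 and -1.91, whereas A13 and A14 were at -0.24 and -0.02.

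The summed Cy5 level of the 7 a-specific genes ranged from 819 to 21505 intensity units over the strains, against 21153 on WT1, with 848 in A10. That of the 4 alpha-specific genes ranged from 600.2 to 39683, against 753 on WT1, with 869 in A10. The haploid-specific sum ranged from 1762 in A10 to 15229 in A14, against 13984 on WT1. MF(ALPHA)1, the main alpha-factor gene, was not well above background on WT1. The part of mating type, ploidy or mixed cells in the haploid-specific values was not tested.

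The remaining pheromone signalling genes were not shifted as far. Of 14 listed, 0 rose and 0 fell by limma over all genes, and the median difference in A10 was -0.41. STE12, the transcription factor at the end of the cascade, and SST2, which resets the G protein, were the 2 of 14 at least 2-fold lower in A10, at -1.89 and -1.55, and SST2 was also at -1.18 in A9 and -1.55 in A15. STE50, an adaptor of STE11 that lies on chromosome III, was at 1.19 in A10. The kinase genes STE7, STE11 and KSS1 were at -0.12, 0.37 and -0.40 there. In A2 and A3, STE11 was at 0.93 and 0.81 and BEM1, a polarity scaffold, at 0.96 and 0.99. The chromosome of STE11, XII, had median log2 ratios of 0.59 and 0.50 there, and that of BEM1, II, had 0.66 and 0.73.

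Genes induced by pheromone separated the strains in another way. Of 10 listed, 0 rose and 0 fell by limma. Their median differences read -0.98 in A2, -0.91 in A3, -0.05 in A9, -1.02 in A10, -0.04 in A13, 0.09 in A14 and -1.23 in A15. FUS1, needed for cell fusion, had differences of -1.81 in A2, -2.0 in A3, -0.89 in A9, -2.81 in A10 and -1.73 in A15, and AGA1, the a-agglutinin anchor, at -2.23, -2.25, -0.78, -2.95 and -2.75 in the same strains. In A2, A3 and A15 these genes were thus further below WT1 than the haploid-specific genes were, whose medians were -0.16, -0.18 and -0.63, while in A10 the order was the other way round.

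Genes downstream of the members' own roles were read next. For RME1, 8 genes of meiosis, most of them early, had a median of 0.35 in A10, and 0 rose or fell by limma. IME4, a methyltransferase gene of meiosis that a/alpha cells transcribe while haploid cells make its antisense RNA, was not well above background on WT1. By the Cy5 level alone IME4 was at least 3.99-fold higher in A10. Its ratio in A10 minus WT1 was 1.82 on the log2 scale, a smaller change, so the size is uncertain. The strand that its probe reads was not given in the sources used here. IME1 was at 0.48 and IME2, a kinase gene induced by Ime1, at 0.41 in A10, and NDT80, which acts later, at -0.04.

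For FAR1, the G1 cyclin genes CLN1, CLN2 and CLN3 were at -0.05, -0.01 and 0.67 in A10, and the kinase gene CDC28 at -0.15. CLN1 was at 0.74 in A9 and -1.12 in A15. For AXL1, a list of 11 genes, made of bud site genes and the protease gene STE23, had a median of 0.27 in A10. Of these, 0 were at least 2-fold lower or higher there. Both bud patterns held genes on either side of WT1 in A10. Of the axial genes BUD3 was at 0.61, BUD4 at -0.94 and AXL2 at -0.69, and of the bipolar genes BUD8 was at 0.34, BUD9 at 0.64, RAX1 at 0.62 and RAX2 at -0.52. STE23, a protease that shares the a-factor task with Axl1 and lies on chromosome XII, was at 1.24 in A2 and 1.06 in A3. For NEJ1, the 5 other end-joining genes had a median of -0.10 in A10, with LIF1, the partner of the ligase, at -0.33. For HO, 5 regulators had a median of -0.05 in A10, among them SWI5, its activator, at -0.90 and ASH1, its daughter-cell repressor, at -0.58. TUP1 and CYC8, the corepressor recruited by a1-alpha2, were at 1.51 and -1.07 in A10. TUP1 lies on chromosome III, as STE50 does, and its value was not set against the median of that chromosome. CYC8 lies on chromosome II, whose median log2 ratio was -0.14 in A10. Across these lists 0 genes passed limma in either direction.

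**Figure D5:**
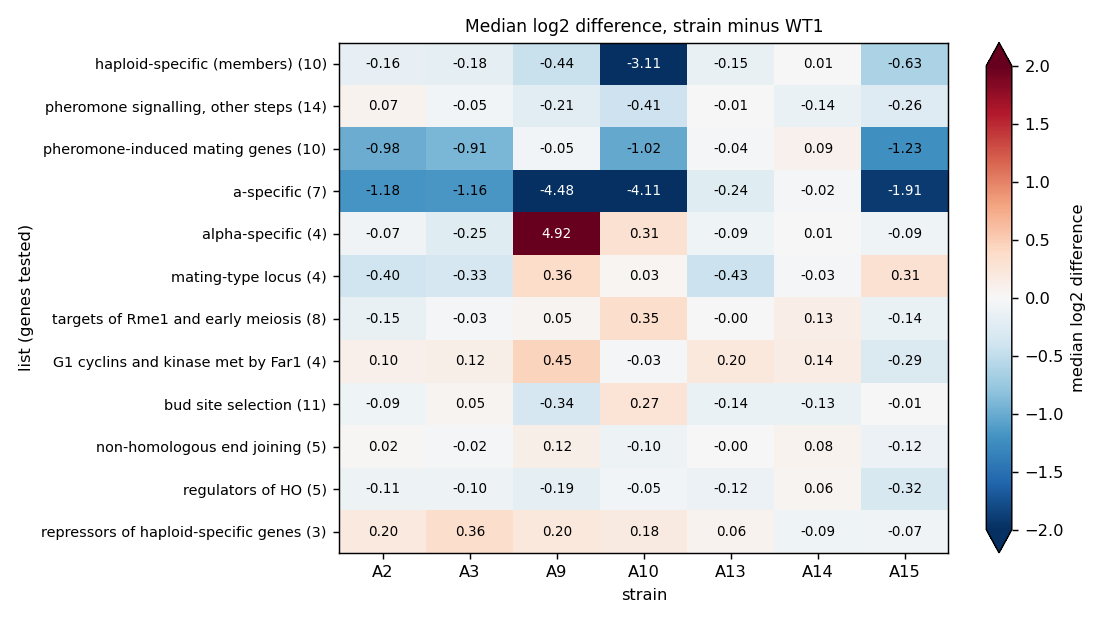
Median log2 difference of each strain minus WT1 (columns) over the genes of each list (rows, number of genes tested in brackets), with colour stopping at -2 and 2. The haploid-specific row is lowest in A10, at -3.11, and the a-specific row in A9, at -4.48.

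The 10 genes followed each other across arrays mainly through A10. Over the 8 arrays the Pearson correlation had a median of 0.93 over the 45 gene pairs and a range from 0.82 to 0.996, and GPA1 with FAR1 was the closest pair. Over the 7 arrays without A10 the median was 0.32 and the range -0.74 to 0.97, with 33 of 45 pairs above 0. GPA1 with FAR1 stayed the closest, and STE18 with NEJ1 was the lowest. Relative to chromosome medians, the value over these 7 arrays was 0.48, with 40 of 45 above 0. The arrays share the WT2 reference, and correlations over so few points are descriptions.

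Outside the set, the profiles most like the mean of the 10 genes over 8 arrays, among 2659 genes spanning at least 1 on the log2 scale, were those of TPA1, SRP1, PAR32, RTT107 and RSC3, with Pearson correlations from 0.98 to 0.99. Their ratios in A10 were -1.10, -2.06, -1.06, -1.70 and -1.44. The most opposite were SPG1, MBF1, ADY2, PTP2 and PXA2, with correlations from -0.99 to -0.98 and A10 ratios from 0.80 to 1.55. Over the 7 arrays without A10, 0 of the first 5 genes ranked among the closest 5.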

How the data were processed

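Total RNA of 7 aneuploid strains and WT1 (Cy5) was hybridised against WT2 (Cy3) on 8 arrays, with no dye swap per the labels. The arrays lay on 1 slide in 2 rows of 4, with A13, A14, A15 and WT1 in row 2. Per the file headers, Agilent Feature Extraction 10.5.1.1 gave median spot and background intensity without normalization, processed signal intensity after background subtraction and dye normalization, and a log10 ratio (red over green). The log2 values of the deposited table matched those log10 ratios on a log2 scale, with 0 columns of no sample.

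Median signals were background-corrected with normexp (offset 50) and loess-normalized in limma 3.58.1 under R 4.3.3, with the 536 control spots at weight 0. The 591 outlier-flagged spots were dropped, and 2 spots per gene were averaged. Tested were 6126 genes with a spot well above background, in Cy5 or Cy3, on 2 or more arrays, 53 of them lacking a value on some array. Strains minus WT1 was tested with lmFit and eBayes, two-sided, at an adjusted p of 0.05, and 1 array a strain allowed no test within strains. Chromosomes come from the open reading frame names, and symbols for 5756 genes from a RefSeq table of assembly R64, used for names only. A bound took the lowest Cy5 level among genes well above background, per channel after Aquantile scaling.

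The fit was tested on simulated data whose changed genes were shifted by the same large amount in every strain. Its power for a change in A10 alone was not tested. Named genes are the 10 members, all genes of 11 further lists of 75 genes, and the 5 genes most like and most opposite to the members' mean. The members, lists and tests were chosen with earlier results of these data known. Alternatives covered the background correction, normalization, value table, chromosome centring, signal filter, reference, slide row and left-out strains. The number of arrays limits the precision.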

Additional observations from a re-analysis of the deposited data

Results flagged for a closer look

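Among the 7 strains, A10 stood apart from the others by Dixon's criterion (gap over range above 0.568) for each of the 10 haploid-specific genes. Its log2 ratios over WT2 and the nearest other strain were -3.5 and -0.79 for GPA1, -2.13 and -0.34 for STE4, -3.58 and -0.48 for STE18, -2.55 and -0.53 for STE5, and -4.54 and -1.08 for FAR1. They were -2.88 and -0.56 for FUS3, -2.28 and -0.90 for RME1, -5.0 and -1.64 for HO, -3.27 and -0.61 for AXL1, and -1.96 and -0.22 for NEJ1. The median over the 10 genes was -3.07 in A10, next to -0.59.

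Relative to the chromosome median A10 stood apart for the same 10 genes, at -3.40 for GPA1, -2.72 for STE4, -3.49 for STE18, -2.32 for STE5, -4.45 for FAR1, -2.74 for FUS3, -2.11 for RME1, -4.78 for HO, -3.12 for AXL1 and -2.28 for NEJ1.

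Of the other genes on the lists, STE50 at 1.31, IME1 at 0.68 and TUP1 at 1.59 were higher in A10 than in the other strains. STE50 and TUP1 lie on chromosome III, and their values were not set against its median. In A9, STE3 at 4.66, SAG1 at 3.58 and MATALPHA1 at 2.95 stood above the other strains. IME4, REC8, HMRA1, MF(ALPHA)1 and MF(ALPHA)2, 5 of the 75 other genes, were not tested, because a channel was not well above background on at least 1 strain's array. Chance alone would single out about 1 in 20 independent groups, a rate that the count here cannot be set against. The 27 of 91 groups flagged include, for A10, each of the 10 haploid-specific genes on both scales and their median. Those genes were named with earlier results of these data known, and the genes share arrays and are not independent.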

How the results depend on the processing

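All 10 genes stayed at least 2-fold lower in A10 under each of the 7 processing alternatives run for that count. These were not separate checks. Dropping the signal filter left the differences as they were, and the deposited table held the same ratios as Agilent's processed signals. limma called 327 genes (143 higher, 184 lower) against WT2 alone, 2.33 and 3% of those tested, and 0 under each of the other alternatives against WT1. None of the 10 haploid-specific genes was called under any, the smallest adjusted p of limma being 0.19, against WT2. The WT2 setting leaves out the WT1 array, so with no dye swap a dye effect common to the arrays stays in its calls. The median over the 10 genes stayed negative, from -0.79 without A2 to -0.30 without A10 when 1 strain was left out. It was -0.29 without A9 and A10, an alternative chosen after seeing the data. With slide row as a term or within the row of WT1 it was -0.28. Both row settings give the same differences by design, because WT1 lies in that row alone. STE4, AXL1 and NEJ1 turned to 0.058, 0.11 and 0.089 with slide row as a term and within that row. With 1 strain left out they ranged from -0.39 to 0.042, from -0.63 to 0.10 and from -0.16 to 0.24, the upper value being that without A10. STE4 and NEJ1 turned to 0.12 and 0.28 without A9 and A10. The other 159 of 170 alternative values of single genes kept their direction and stayed uncalled. That count holds repeats, from both row settings, the unfiltered differences and the deposited table. Genes at least 2-fold lower numbered 1 in A2, against 0, with Agilent's processed signals and with the deposited table. Against WT2 they numbered 0 in A3, against 1, and 1 in A15, against 2. In A9 they numbered 2, against 3, with median centring, relative to the chromosome and against WT2, and in A15 3 relative to the chromosome. The cause was not tested. Of the 5 genes most like the members, 0 were shared without A10 and 3 relative to the chromosome median. No paired analysis was possible because the labels number no replicates. Weak signals, as of HO, STE18 and FAR1 in A10, limit how far a low ratio can be read.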
